A study of Mus musculus with 14 samples.

Results

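Expression of 10 pigment and peripheral glial genes was compared across 14 mouse glioblastomas: Dct, Pmel and Gpnmb of the pigment cell, the adhesion genes Mcam and Cdh19, the peripheral myelin genes Pmp22, Ncmap, Pmp2 and Drp2, and the transcription factor gene Egr2. These 10 genes were read from all 20 probes that the platform annotation gives them, out of 32034 probes with 1 gene symbol, and all 10 were among the 11786 genes tested. They had been picked with the difference between the tumour types in view, so that difference is described for each of them and not tested. Their co-variation within a type and their difference between array batches had no part in the choice and were tested.

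The tumours arose in mice of mixed genetic background that were given tamoxifen once by mouth, at 10 mg for each 20 g of weight, when 6 to 8 weeks old, and were then kept until they showed symptoms. In the 7 Type 2 tumours the drug-inducible recombinase was NG2-CreERTM, driven by the promoter of the proteoglycan NG2, which is used by oligodendrocyte progenitors and also by pericytes. In the 7 Type 1 tumours it was Nestin-CreERT2, driven by the promoter of the intermediate filament nestin, which is used by neural stem and progenitor cells. Mice of either type carried a tdTomato reporter, 1 floxed Nf1 allele and floxed Trp53 on both chromosomes for the recombinase to act on, so no group lacks these alleles. Total RNA of frozen primary tumour was hybridised to single-colour bead arrays, 1 tumour per array, in 2 batches. Batch 1 held 4 Type 2 and 3 Type 1 tumours, and batch 2 held 3 Type 2 and 4 Type 1 tumours. Each of the 5 chips held tumours of 1 type, so chip and type cannot be told apart.

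Melanocytes and Schwann cells both descend from the neural crest, and Schwann cell precursors along nerves can give rise to melanocytes. In the pigment cell the transcription factor Mitf, together with Sox10, switches on the enzymes that make melanin (Tyr, Tyrp1 and Dct) and the proteins that build the melanosome (Pmel, Mlana). In the Schwann cell Sox10 and Egr2 act together on the genes of peripheral myelin. The normal brain parenchyma holds neither cell type. Melanocytes do lie in the meninges, and Schwann cells on the cranial nerve roots. Oligodendrocytes make central myelin with some of the same genes, and Sox10 belongs to both glial lineages.

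The stretches before the start sites of Dct, Tyr and Gpnmb are shown because Dct and Tyr encode enzymes of the same pathway yet differed in detection here, and Gpnmb is the pigment gene that was detected in all 14 tumours. The sequences are those of RefSeq on the build GRCm38.p6, each 250 bases that end at the base before the start site, written 5′ to 3′ on the strand of the gene. Capitals mark TCATGTG, the M-box that Mitf can bind, and ACAAAG, a motif of SOX factors, each on either strand; neither word contains the other. Dct lies at chr14:118052247-118052496 on the minus strand, Tyr at chr7:87493513-87493762 on the minus strand and Gpnmb at chr6:49036268-49036517 on the plus strand.
Dct: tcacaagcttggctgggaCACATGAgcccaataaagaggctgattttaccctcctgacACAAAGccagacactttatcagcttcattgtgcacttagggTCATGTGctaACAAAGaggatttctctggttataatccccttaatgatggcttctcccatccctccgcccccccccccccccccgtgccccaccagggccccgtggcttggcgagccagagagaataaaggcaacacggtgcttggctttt
Tyr: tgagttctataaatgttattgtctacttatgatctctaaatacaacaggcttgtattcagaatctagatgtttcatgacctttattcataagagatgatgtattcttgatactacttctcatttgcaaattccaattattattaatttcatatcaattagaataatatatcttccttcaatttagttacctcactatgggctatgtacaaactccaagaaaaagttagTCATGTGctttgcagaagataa
Gpnmb: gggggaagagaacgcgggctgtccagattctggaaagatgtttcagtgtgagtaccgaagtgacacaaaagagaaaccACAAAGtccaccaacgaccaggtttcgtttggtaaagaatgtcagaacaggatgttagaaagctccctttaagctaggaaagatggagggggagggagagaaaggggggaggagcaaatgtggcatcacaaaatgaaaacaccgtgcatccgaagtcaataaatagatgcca

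The Dct stretch held TCATGTG at 151 bases before the start and, on the opposite strand, at 232 bases before it, with ACAAAG at 192 and 141 bases before the start. In Tyr the M-box began 22 bases before the start, and in Gpnmb the SOX word began 172 bases before it. The promoter table covered 6 of the 10 genes with 14 promoters of 300 bases, from 250 before to 50 after the start. Of these, 1 held TCATGTG (Dct), 2 held ACAAAG (Dct and Gpnmb) and 1 held GTGGGCG, a word bound by EGR factors, on either strand (Egr2). Among all 32851 promoters of that length, 3.77% held TCATGTG, 18.7% held ACAAAG and 7.97% held GTGGGCG. Promoters of Pmel, Cdh19, Drp2 and Pmp2 were not analysed here.

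Values below are background-corrected, quantile-normalized log2 signals, so a difference of 1 is a 2-fold difference in signal. Probes differ in brightness for the same amount of RNA, and levels are therefore compared between tumours and not between genes. Each type difference given with an SE was fitted with batch as a term, so it can depart from the difference of the group means. A gene counted as detected on an array when its detection p-value was under 0.05. Between 19681 and 20759 probes were detected per Type 2 array and between 19299 and 20868 per Type 1 array. The glial genes Olig1, Pdgfra and Sox10 were detected in all 14 tumours. Over all 11786 genes, 4.64% differed between the types by limma with batch as a term at an adjusted p under 0.05, 2.32% being higher and 2.32% lower in Type 2, and the median difference was 0.0055. Nothing in the labels says that tumours shared an animal, and in bulk RNA fewer cells of a type and less RNA per cell cannot be told apart.

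Dct, which encodes the melanin enzyme dopachrome tautomerase, had a lowest, median and highest signal of 8.05, 9.52 and 11.85 in Type 2 tumours, against 4.57, 5.17 and 6.29 in Type 1 tumours. Every Type 2 tumour lay above every Type 1 tumour, and the gene was detected in 7 of 7 Type 2 and 2 of 7 Type 1 tumours. The means were 9.61 ± 1.24 in Type 2 and 5.22 ± 0.58 in Type 1 (SD, n = 7 each), a difference of 4.40 ± 0.49 (SE), being 4.61 in batch 1 and 4.18 in batch 2. No signal was detected on 5 of 7 Type 1 arrays, and without background correction the difference was 2.45. A second Dct probe, detected in 7 Type 2 and 0 Type 1 tumours, correlated with the first at r = 0.985 over the 14 arrays. By that probe the Type 2 mean was higher by at least 10.4-fold, taking for each Type 1 array the higher of its lowest detected signal and the probe's own.

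Pmel encodes the protein whose amyloid fibrils form the scaffold of the melanosome. Its signal was 8.24, 9.67 and 12.02 (lowest, median, highest) in Type 2 and 5.23, 5.94 and 6.95 in Type 1. The types again did not overlap, although 5 of 7 Type 1 tumours had a detected signal. Pmel averaged 9.87 ± 1.40 in Type 2 and 5.98 ± 0.63 in Type 1 (SD, n = 7 each). With batch as a term the difference was 3.84 ± 0.53 (SE), or 2.39 without background correction. The gap was 4.42 in batch 1 and 3.26 in batch 2, and the other Pmel probe gave 3.13.

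Gpnmb encodes a membrane glycoprotein of the melanosome and of lysosomes, and is also made by macrophages. It was detected in all 14 tumours, at 12.11, 13.37 and 13.92 in Type 2 and 10.49, 11.93 and 13.57 in Type 1 (lowest, median, highest). The types overlapped: 2 Type 2 tumours exceeded all Type 1 tumours, and 5 Type 1 tumours lay below all Type 2 tumours. The mean was 13.21 ± 0.65 in Type 2 and 11.70 ± 1.16 in Type 1 (SD, n = 7 each), with a difference of 1.45 ± 0.46 (SE), 0.96 in batch 1 and 1.93 in batch 2. Its 2 other probes differed by 1.85 and 1.19, the probe with 1.19 being detected in only 6 Type 2 and 1 Type 1 tumours.

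Mcam encodes an adhesion molecule of the immunoglobulin superfamily found on melanoma cells, endothelium and smooth muscle. It measured 9.56, 10.85 and 11.47 in Type 2 tumours and 6.98, 7.68 and 8.82 in Type 1 tumours (lowest, median, highest). All Type 2 tumours stood above all Type 1 tumours with each of the 3 Mcam probes, and every tumour had a detected signal. Mean signals were 10.82 ± 0.69 in Type 2 and 7.78 ± 0.64 in Type 1 (SD, n = 7 each). With batch as a term the difference was 3.09 ± 0.33 (SE), or 8.50-fold. Within the batches the difference was 3.71 in batch 1 and 2.46 in batch 2.

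Cdh19 encodes a cadherin typical of Schwann cell precursors. Its lowest, median and highest signals were 6.54, 8.25 and 10.47 in Type 2 and 4.72, 5.70 and 7.53 in Type 1. All 7 Type 2 and 5 of 7 Type 1 tumours had a detected signal. Among the 7 Type 2 tumours, 6 exceeded all Type 1 tumours; the exception, replicate 1, lay below 2 Type 1 tumours, replicates 3 and 4. Cdh19 averaged 8.30 ± 1.16 in Type 2 and 6.04 ± 1.07 in Type 1 (SD, n = 7 each), a difference of 2.23 ± 0.55 (SE), with 2.36 in batch 1, 2.10 in batch 2 and 1.13 without background correction.

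Among the myelin genes the differences did not all run in the same direction. Pmp22 encodes a small membrane protein of compact peripheral myelin that many other cells also make. It ranged over 10.72, 11.64 and 12.51 in Type 2 and 10.08, 10.95 and 11.34 in Type 1 (lowest, median, highest), and 4 Type 2 tumours exceeded all Type 1 tumours. Its difference was 0.66 ± 0.29 (SE), 0.41 in batch 1 and 0.91 in batch 2, and a second probe gave 0.82.

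Ncmap encodes a protein of non-compact peripheral myelin. It was spread widely in Type 2, at 5.28, 6.16 and 10.99 (lowest, median, highest), and narrowly in Type 1, at 4.96, 5.16 and 5.64. A signal was detected in 6 Type 2 and 2 Type 1 tumours. Type 2 replicate 4, at 10.99, was followed by replicate 3 of its type at 8.16. The difference was 1.72 ± 0.68 (SE), 2.48 in batch 1 and 0.96 in batch 2, and 1.16 without Type 2 replicate 4. It was 0.82 without background correction, 5 of 7 Type 1 arrays having no detected signal.

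Pmp2, the gene of a fatty acid-binding protein of peripheral myelin, was detected in 3 Type 2 and 1 Type 1 tumours. Its signals of 4.92, 5.31 and 6.58 in Type 2 and 4.57, 4.95 and 5.73 in Type 1 (lowest, median, highest) overlapped, and most of them carry no more than a bound. The difference was 0.50 ± 0.28 (SE), 0.30 in batch 1 and 0.69 in batch 2, and 0.16 without background correction.

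Drp2 ran the other way. It encodes a dystrophin-related scaffold protein that joins periaxin to the Schwann cell surface. Signals of 8.43, 8.94 and 9.95 in Type 2 stood against 8.74, 10.30 and 11.56 in Type 1 (lowest, median, highest), and 6 of 7 Type 1 tumours exceeded all Type 2 tumours. Drp2 averaged 9.10 ± 0.51 in Type 2 and 10.29 ± 0.88 in Type 1 (SD, n = 7 each), a difference of -1.23 ± 0.36 (SE), or 2.35-fold higher in Type 1, with -1.29 in batch 1 and -1.18 in batch 2. This value rests on 1 probe, since the 2 other Drp2 probes were detected on 2 and 0 of the 14 arrays.

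Egr2, the gene of the zinc finger factor required for peripheral myelination, is also an immediate early gene that many cells switch on briefly after stimulation. It was detected everywhere, at 8.44, 9.86 and 10.88 in Type 2 and 7.91, 8.58 and 10.27 in Type 1 (lowest, median, highest). The types overlapped, with 2 Type 2 tumours above all Type 1 tumours. The difference was 0.69 ± 0.42 (SE), 1.10 in batch 1 and 0.29 in batch 2.

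Across the 10 genes the median difference was 1.58, and 9 of the 10 were higher in Type 2. Of them 4 passed the limma threshold (Dct, Pmel, Mcam and Cdh19), where 4.64% of all genes did, and 3 had types that did not overlap (Dct, Pmel and Mcam), where 1.23% of all genes did. Since the genes were picked on this contrast, those shares are given as a description. In the authors' processed values the differences were 4.22 for Dct, 3.74 for Pmel, 3.10 for Mcam, 2.11 for Cdh19, 1.63 for Ncmap, 1.55 for Gpnmb and -1.25 for Drp2, and the same 3 genes separated the types.

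**Figure D1:**
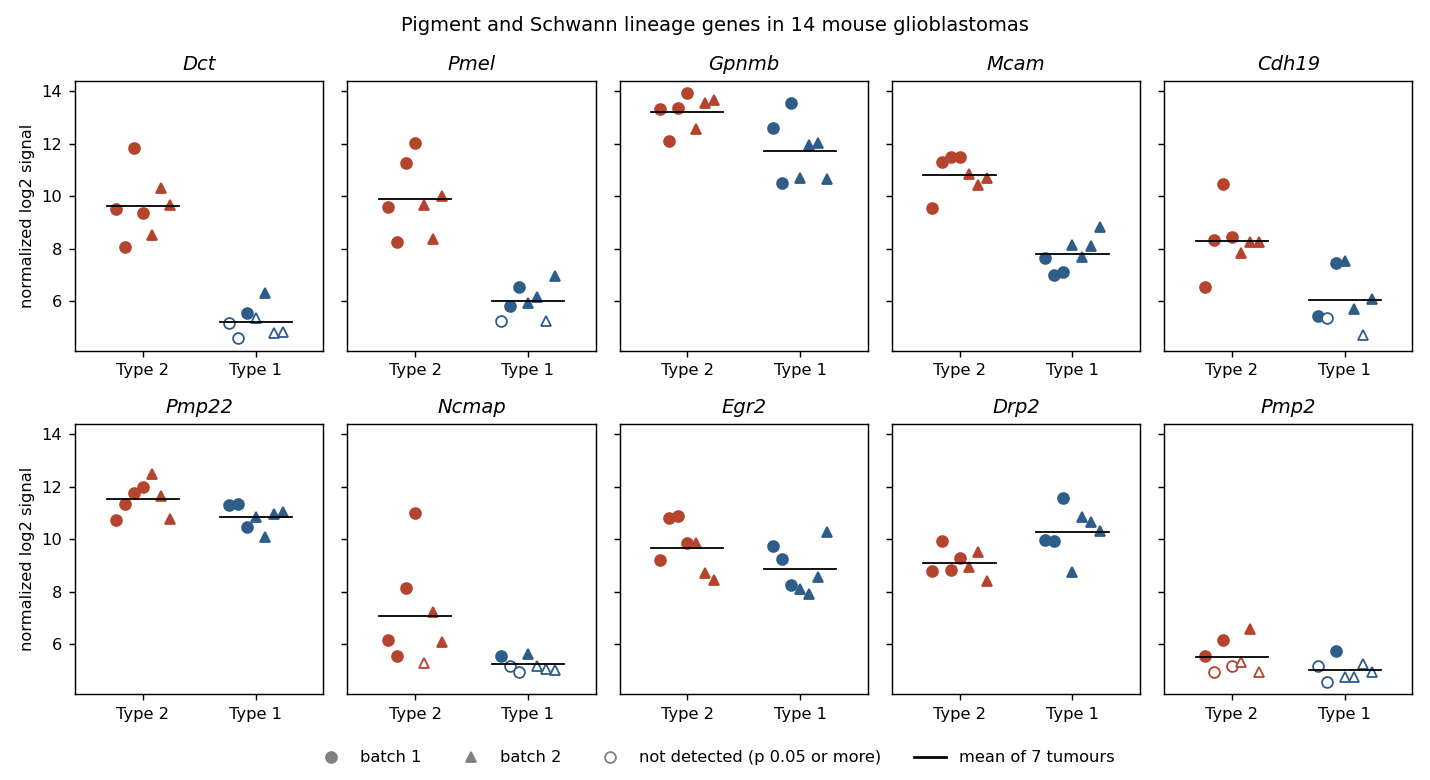
Normalized log2 signal (vertical axis) of the 10 genes in 7 Type 2 (left) and 7 Type 1 (right) tumours; circles are batch 1, triangles batch 2, open symbols arrays with no detected signal, and the bar is the mean of 7 tumours. Dct, Pmel and Mcam do not overlap between the types, Drp2 averages 9.10 in Type 2 and 10.29 in Type 1, and Ncmap reaches 10.99 in 1 Type 2 tumour.

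Batch was the first contrast that the choice of genes had not used. None of the 10 genes differed between batches by limma at an adjusted p under 0.05, where 10.7% of all genes did. At an unadjusted p under 0.05 the count was also 0, and the share of all genes at that threshold is not given. Egr2 came nearest, at -0.78 ± 0.42 (SE) in batch 2 minus batch 1 (limma adjusted p = 0.254). Scaling the arrays by their medians in place of quantiles moved the median of all genes by -0.39 between batches, and on that scale Egr2 differed by -1.32 with a limma adjusted p of 0.0267, when 4181 genes passed. By limma's interaction term of type and batch, 0 of 10 genes had an unadjusted p under 0.05, where 16.4% of all genes did. At an adjusted p under 0.05 none of the 10 and 0% of all genes passed. The genes were picked with the type difference in view, which favours a similar difference in both batches, so this count is a description. The 95% confidence intervals of the interaction were wide, reaching from -4.41 to 1.36 for Ncmap and from -3.43 to 1.13 for Pmel. The lowest interaction p was that of Mcam, whose type difference was smaller in batch 2 (interaction -1.25, 95% confidence interval -2.53 to 0.03, limma adjusted p = 0.320).

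The tumours within a type differed in which genes they had most of. Type 2 replicate 3 had the highest Dct (11.85), Cdh19 (10.47) and Egr2 (10.88) of its type. Type 2 replicate 4 had the highest Pmel (12.02), Gpnmb (13.92) and Ncmap (10.99). Each of these 2 tumours was among the top 3 of its type for 8 of the 10 genes. At the other end, Type 2 replicate 2 had the lowest Dct (8.05), Pmel (8.24), Gpnmb (12.11) and Pmp2 (4.92) of its type while its Mcam, at 11.30, was above the Type 2 median of 10.85. Type 2 replicate 1 had the lowest Mcam (9.56), Cdh19 (6.54) and Pmp22 (10.72). The lowest values of the pigment genes and those of the adhesion genes thus lay in different Type 2 tumours.

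Among Type 1 tumours, replicate 3 had the highest Gpnmb (13.57), Drp2 (11.56) and Pmp2 (5.73), and replicate 7 the highest Pmel (6.95), Mcam (8.82) and Egr2 (10.27). Replicates 4 and 3 had the highest Cdh19 of the type, at 7.53 and 7.45, with Dct at 5.34 and 5.53. Dct was detected in Type 1 replicates 3 and 5, at 5.53 and 6.29.

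**Figure D2:**
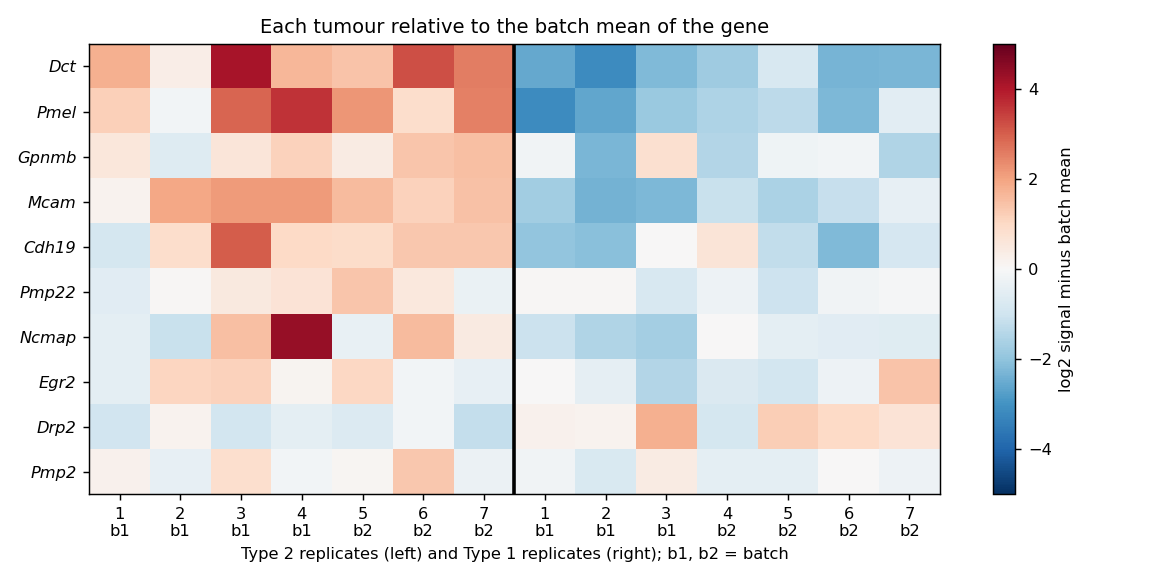
Each gene (rows) in each tumour (columns; Type 2 replicates left of the line, Type 1 right), coloured by log2 signal minus the mean of that gene over the tumours of the same batch; red is above and blue below. Type 2 replicates 3 and 4 hold the strongest reds, for Dct (11.85) and Ncmap (10.99), and Drp2 is the row in which 6 of 7 Type 1 tumours exceed all Type 2 tumours.

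To ask whether the genes moved together from tumour to tumour, each signal was taken as its deviation from the mean of its type and batch, and all 45 pairs were correlated over the 14 tumours with exact two-sided permutation of tumours within type and batch. Pearson's r ranged from -0.504 (Gpnmb with Egr2) to 0.710 (Mcam with Egr2), with a median of 0.176, 29 pairs being positive and 16 negative. No pair passed an adjusted p of 0.05 by Pearson's or Spearman's measure, and 4 and 3 pairs had an unadjusted p under 0.05. There were 5 pairs with an r of at least 0.6, which is 11.1% of the pairs, against 3.2% when the 10 genes were paired with all other genes.

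Of these 5 pairs, 3 joined Mcam, Egr2 and Pmp22. Mcam with Egr2 gave r = 0.710 (exact permutation p = 0.0060, adjusted p = 0.269) and rho = 0.702 (exact p = 0.0170), with r = 0.685 within Type 2 and 0.863 within Type 1. Without the 2 tumours farthest from the median of Mcam, r was 0.625. Pmp22 with Egr2 gave r = 0.686 (exact p = 0.0172, adjusted p = 0.273) and rho = 0.736 (exact p = 0.0095), 0.709 within Type 2 and 0.727 within Type 1, and 0.608 without the 2 farthest tumours. Mcam with Pmp22 gave r = 0.611 (exact p = 0.0182, adjusted p = 0.273) and rho = 0.621 (exact p = 0.0185). That last r was 0.606 within Type 2 and 0.628 within Type 1, and 0.494 without the 2 farthest tumours.

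Among the pigment genes, Dct with Pmel had r = 0.38 (-0.205 without the 2 farthest tumours), Dct with Gpnmb r = 0.49 and Pmel with Gpnmb r = 0.284. Dct with Pmp2 reached r = 0.619 (exact p = 0.0424, adjusted p = 0.477; rho = 0.534, exact p = 0.110), but it was 0.750 within Type 2 and 0.156 within Type 1, and most Pmp2 signals were not detected. Pmel with Ncmap had r = 0.613 (exact p = 0.215, adjusted p = 0.850), which rested on Type 2 replicates 2 and 4, since r was -0.061 without them. None of these relations held after adjustment over the 45 pairs, and 14 tumours bound the precision of each r.

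**Figure D3:**
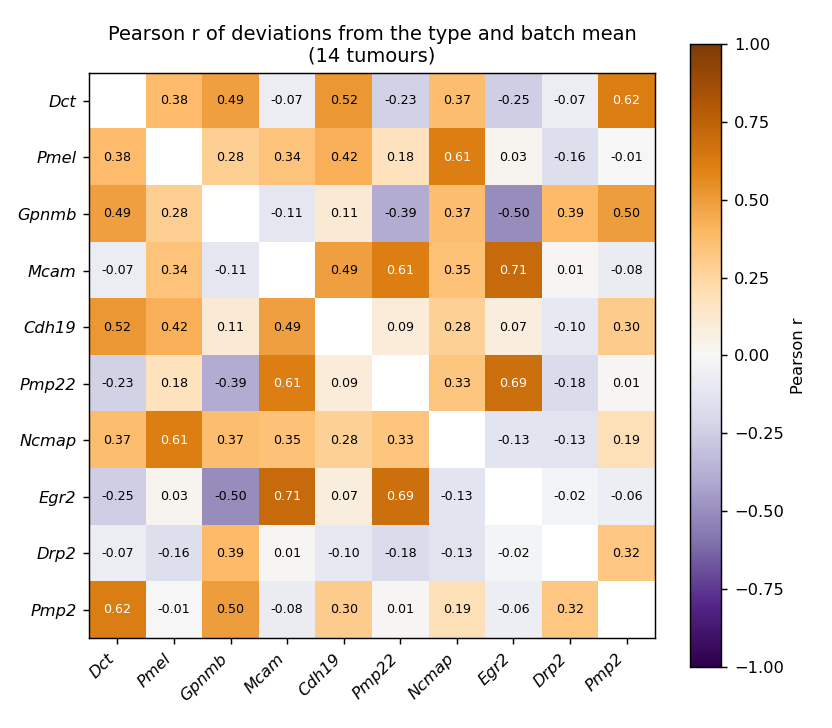
Pearson's r between each pair of the 10 genes, on deviations from the type and batch mean over 14 tumours; orange is positive, purple negative, and the number is r. Mcam, Pmp22 and Egr2 form the block with r of 0.61 to 0.71, and Gpnmb with Egr2 has the lowest r, -0.50.

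The other genes of these cell types were read from 11 lists and tested with limma over all genes, where 2.32% of genes were higher and 2.32% lower in Type 2. The lists, like the 10 genes, were drawn up with earlier results of these tumours known, so their counts are no independent evidence of a difference between the types. The share of all genes at an unadjusted p under 0.05 is not given for this contrast. List counts at that threshold therefore have no background to be set against. In the melanocyte and pigment list several defining genes stayed at background. Mitf, Tyr, Tyrp1, Mc1r, Gpr143, Pax3 and Tspan10 were detected on no array, the medians of Mitf being 4.78 in Type 2 and 4.76 in Type 1 and those of Tyr 4.53 in Type 2 and 4.57 in Type 1. Tyrp1, the third melanin enzyme, had medians of 4.67 in Type 2 and 4.79 in Type 1. Lack of a detected signal at these probes does not show that the RNA was absent. In other lists Ier2, Nr4a1, Myrf and Gpr37 were likewise detected on no array. Whether the probes of such genes can report their RNA was not tested. Of 22 genes, 13 were measured, 0 passed limma's adjusted threshold and 2 had an unadjusted p under 0.05. Those 2, Rab38 (difference 1.03, limma adjusted p = 0.0792) and Tfap2a (1.15, 0.0986), were higher in Type 2. Each was detected in 4 Type 2 and 0 Type 1 tumours. The median difference was 0.08, and the mean level of the list was 7.29 to 7.73 in Type 2 and 6.97 to 7.45 in Type 1.

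Schwann cell and neural crest genes outside the 10 were higher in Type 2 in 4 of 15 measured cases (26.7%), with a list median of 1.22, and none was lower; 6 had an unadjusted p under 0.05. Dhh, the hedgehog ligand of Schwann cells, had 8.06, 9.43 and 12.53 in Type 2 and 4.65, 5.32 and 7.96 in Type 1 (lowest, median, highest). Its types did not overlap, and the difference was 4.20 ± 0.70 (SE; limma adjusted p = 0.00695), 4.98 in batch 1 and 3.42 in batch 2. Erbb3, the neuregulin receptor of Schwann cells and of oligodendrocyte progenitors, was detected in 7 Type 2 and 0 Type 1 tumours with a Type 2 mean higher by at least 1.66-fold (limma adjusted p = 0.00695).

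Sox10, the shared factor of pigment cells and glia, had 13.59, 14.02 and 14.26 in Type 2 and 9.99, 12.86 and 13.51 in Type 1 (lowest, median, highest). The types did not overlap, and the difference was 1.79 ± 0.46 (SE; limma adjusted p = 0.0408), though omitting any of 12 of the 14 tumours ended the call (highest adjusted p = 0.0741, without Type 2 replicate 3). Ngfr, a neurotrophin receptor of immature Schwann cells, differed by 1.91 ± 0.46 (SE; limma adjusted p = 0.0333), a call that ended on omitting any of 7 tumours (highest 0.0687, without Type 1 replicate 2). Foxd3, a neural crest factor, was detected on no array. Dhh and Erbb3 kept their call whichever tumour was omitted.

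Of the peripheral myelin genes outside the 10, 1 of 14 measured was higher in Type 2 and none was lower, with a list median of 0.13 and 6 genes at an unadjusted p under 0.05. That gene was Nab1, which encodes a cofactor of EGR factors, at 0.59 ± 0.16 (SE; limma adjusted p = 0.0495), and omitting any of 13 tumours ended its call (highest 0.115, without Type 1 replicate 2), as did fitting the chip as a random block (adjusted p = 0.0566). Prx, the gene of periaxin, was not analysed here. The mean level of the list was 7.11 to 8.00 in Type 2 and 6.66 to 7.53 in Type 1.

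Genes that serve both central and peripheral myelin were higher in Type 2 in 6 of 9 measured cases (66.7%), with a median of 1.04, and none was lower; the same number, 6, had an unadjusted p under 0.05. Gal3st1, which makes the myelin lipid sulfatide, differed by 2.57 ± 0.53 (SE; limma adjusted p = 0.0175) and kept its call whichever tumour was omitted. Cnp (1.59, limma adjusted p = 0.0250), Ugt8a (1.24, 0.0387), Cldn11 (0.74, 0.0393), Cd9 (1.04, 0.0333) and S100b (1.48, 0.0282) lost theirs on omitting any of 3, 7, 10, 7 and 7 tumours. Mbp, the gene of myelin basic protein, had medians of 13.12 in Type 2 and 11.87 in Type 1 and a difference of 0.46 ± 0.58 (SE; limma adjusted p = 0.699).

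Genes of central myelin alone gave 0 calls among 7 measured by limma, 1 at an unadjusted p under 0.05, and a median of -0.19. Mog, on the oligodendrocyte surface, differed by -0.29, Mobp by -1.21 and Opalin by 0.71, and 3 of the 7 had a positive difference. Among 12 oligodendrocyte progenitor genes, Vcan, a matrix proteoglycan gene, was higher in Type 2 (1.53 ± 0.33, SE; limma adjusted p = 0.0212), 3 had an unadjusted p under 0.05, and the median was 0.47. Pdgfra differed by 0.60 (limma adjusted p = 0.347) and Cspg4, the gene of NG2 itself, by 0.90 (adjusted p = 0.190).

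Some markers of other cells that make members of the set moved with the types. Vessel cells make Mcam, and of 14 endothelial and mural genes 3 were higher in Type 2: Vwf (1.78 ± 0.26, SE; limma adjusted p = 0.0057), Tie1 (0.87 ± 0.16, SE; 0.0101) and Rgs5 (1.46 ± 0.31, SE; 0.0185). In that list 10 of 14 genes had an unadjusted p under 0.05 and 12 a positive difference, with a median of 0.73 and a mean level of 7.64 to 8.42 in Type 2 and 6.75 to 7.61 in Type 1. Of 12 measured fibroblast and meningeal genes, Lum (2.47 ± 0.49, SE; limma adjusted p = 0.0143) and Mgp (2.96 ± 0.53, SE; 0.0101), both matrix genes, were higher in Type 2 whichever tumour was omitted. Col1a1 (at least 2.28-fold, limma adjusted p = 0.0492) and Col6a1 (2.33, adjusted p = 0.0483) also passed, but not on omitting any of 12 and 10 tumours, nor with the chip as a random block (limma adjusted p = 0.0566 and 0.0565). At an unadjusted p under 0.05 there were 5 of the 12. That list's mean level was 6.96 to 8.59 in Type 2 and 6.23 to 7.92 in Type 1, with a median difference of 0.48.

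Macrophages make Gpnmb, and microglia and macrophage genes gave 0 of 13 calls by limma and 1 at an unadjusted p under 0.05, with a median of 0.25 that was -0.39 in batch 1 and 0.88 in batch 2. Immediate early genes, the class to which Egr2 also belongs, gave 0 of 9 and 2 at an unadjusted p under 0.05. Of these Fos had 10.17, 10.84 and 11.39 in Type 2 and 8.77, 9.32 and 10.88 in Type 1 (lowest, median, highest; limma adjusted p = 0.0562). Choroid plexus genes gave 0 of 8 calls and 0 at an unadjusted p under 0.05, and their mean level reached 9.97 in Type 1 replicate 1. All 19 list genes that passed had the same sign in both batches, with differences of 0.72 to 4.98 in batch 1 and 0.30 to 3.42 in batch 2. These genes had been picked by a type difference fitted over both batches, which favours a shared sign, so that sign is a description and no replication. The part that these cell types have in the differences of the 10 genes was not tested.

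**Figure D4:**
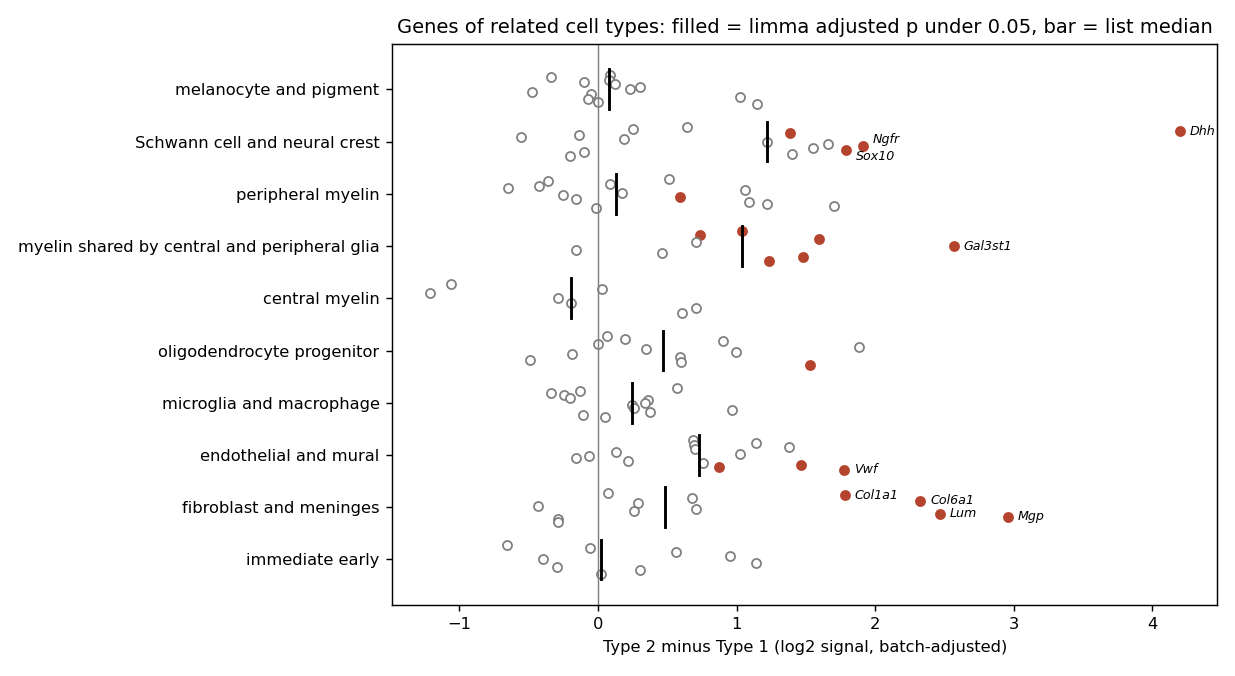
Type 2 minus Type 1 difference in log2 signal, with batch as a term (horizontal axis), of each measured gene in 10 lists of related cell types; filled points passed limma at an adjusted p under 0.05 and the vertical bar is the list median. Shared myelin and Schwann cell genes lie to the right, with medians of 1.04 and 1.22, melanocyte genes centre on 0.08, and Dhh stands at 4.20.

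Within a type, the 10 genes were also set against the mean level of each list, on the same deviations. These 110 relations were chosen after seeing the data. By Pearson's measure none passed an adjusted p of 0.05 and 9 had an unadjusted p under 0.05, and by Spearman's measure 1 passed. That relation was Dct with the fibroblast and meningeal genes, with r = 0.798 (exact permutation p = 0.00092, adjusted p = 0.0557) and rho = 0.873 (exact p = 0.00014, adjusted p = 0.0159). The r was 0.919 within Type 2 and 0.632 within Type 1, and 0.787 without the 2 tumours farthest from the median. Dct was detected in only 2 of 7 Type 1 tumours, so the r within Type 1 rests mostly on signals at background. Type 2 replicate 3, with the highest Dct of 11.85, also had the highest mean level of that list, 8.59, and Type 2 replicate 2, with the lowest Dct of its type, the lowest, 6.96.

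Cdh19 with the peripheral myelin list had r = 0.813 (exact permutation p = 0.0010, adjusted p = 0.0557) and rho = 0.798 (exact p = 0.0029, adjusted p = 0.159). The r was 0.783 within Type 2 and 0.849 within Type 1, and 0.703 without the 2 farthest tumours. Cdh19 was not detected in Type 1 replicates 2 and 6, so the r within Type 1 rests in part on signals at background. Cdh19 also had r = 0.756 with the Schwann cell list (exact permutation p = 0.0193, adjusted p = 0.305) and r = 0.650 with the central myelin list (exact permutation p = 0.0147, adjusted p = 0.305), and differences between these r values were not tested. Gpnmb with the microglia and macrophage list had r = 0.664 (exact p = 0.105, adjusted p = 0.548) and rho = 0.446 (exact p = 0.235), and r was 0.308 without the 2 farthest tumours. With the fibroblast list Gpnmb had r = 0.790 (exact p = 0.0138, adjusted p = 0.305). Mcam showed no detectable relation to the endothelial and mural list over the 14 tumours, at r = 0.018 (exact p = 0.968, adjusted p = 0.977). Its r was -0.353 within Type 2 and 0.552 within Type 1. Egr2 showed none to the immediate early list, at r = 0.465 (exact p = 0.221, adjusted p = 0.605). Pmp22 with the shared myelin list had r = -0.131 (exact p = 0.675, adjusted p = 0.865). With the microglia and macrophage list Pmp22 had r = -0.626 (exact p = 0.0131, adjusted p = 0.305). The remaining relations with an unadjusted p under 0.05 were Dct with central myelin (r = 0.660, exact p = 0.0194, adjusted p = 0.305), Dct with microglia and macrophage (0.520, 0.0302, 0.415) and Pmp2 with fibroblast genes (0.692, 0.0381, 0.466).

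**Figure D5:**
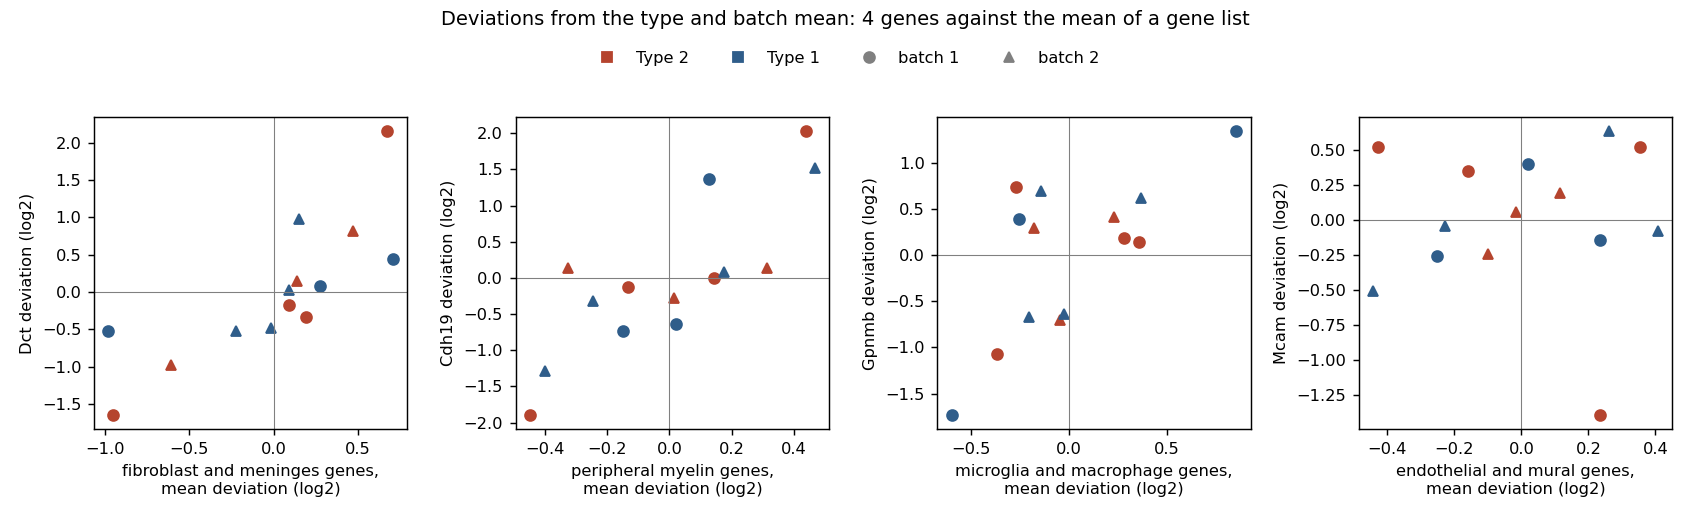
Deviation of Dct, Cdh19, Gpnmb and Mcam (vertical axes, log2) from the mean of their type and batch, against the same deviation of the mean of a gene list (horizontal axes, log2), in 7 Type 2 and 7 Type 1 tumours. Dct with fibroblast genes (r = 0.798) and Cdh19 with peripheral myelin genes (r = 0.813) had a positive r within both types. Both had an exact permutation adjusted p of 0.0557. Dct was detected in only 2 of 7 Type 1 tumours, and Cdh19 in 5 of 7. Mcam with endothelial genes (r = 0.018) had r = -0.353 within Type 2 and 0.552 within Type 1.

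The genes whose deviations were most like the mean of Dct, Pmel and Gpnmb over the 14 tumours, among 11786 genes, were Renbp (r = 0.942), Capg (0.938), which encodes an actin-capping protein, Got1l1 (0.933), Plec (0.912), the gene of the cytoskeletal linker plectin, Serpinh1 (0.900), the gene of a collagen chaperone, and Itih5 (0.885). For the mean of Cdh19, Pmp22, Ncmap, Egr2, Drp2 and Pmp2 they were Slco3a1 (r = 0.909), Cdh10 (0.907), a cadherin gene, Megf9 (0.892), Ttyh2 (0.892), Socs5 (0.891) and Tmc6 (0.870). Each member is part of its own mean, which raises its r, so these values are not comparable with those above. They were 0.809 for Dct, 0.747 for Gpnmb and 0.744 for Pmel. For the other mean they were 0.654 for Ncmap, 0.644 for Cdh19, 0.579 for Pmp22, 0.496 for Pmp2, 0.399 for Egr2 and 0.181 for Drp2. The correlations of the non-member genes are the highest of many, and all of these values describe the tumours without a test.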

How the data were processed

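Single-colour bead arrays measured total RNA of 14 primary tumours. Per the file headers, the deposited signal table gives, array by array, a mean bead intensity and its detection p-value at 45281 probes, not normalized, and the submitters' processing notes name BeadStudio. A second deposited table holds the authors' processed log2 values for 38502 probes. The sources used here do not say how it was made. Its arrays followed the signals at r of 0.9989 to 0.9997 over 4311 bright probes (at most 0.315 with any other array). Direction and array identity thus matched. Its scale was 1.05 to 1.12 times that of the log2 signals, its array medians were 2.67 to 2.69, and the centring of each probe stays unknown.

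The intensities went through neqc of limma 3.58.1 in R 4.3.3: normexp background correction that reads the background from the detection p-values, an offset of 16, quantile normalization and log2. Probes were named by the platform annotation, an old one, with symbols updated through Entrez identifiers to RefSeq (GRCm38.p6); 32034 probes had 1 symbol, 16 several and 13231 none. A probe was kept when detected (detection p under 0.05) on at least 3 arrays, and the probe with the highest mean stood for its gene, giving 11786 genes. The types and batches were compared with limma (lmFit, eBayes), type and batch being terms of 1 fit, with Benjamini-Hochberg adjustment over all genes, and the type by batch interaction in a second fit. The fit was tested on simulated data. Pairs of genes were compared by exact permutation over 20736 arrangements of the tumours within type and batch, with Benjamini-Hochberg adjustment over the pairs.

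Groups and batches came from sample titles. Replicate numbers follow accession order, name a tumour and pair nothing. The spread that p-values rest on is the one among these tumours, and the number of arrays limits the precision.

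The members and the gene lists were chosen with earlier results of these data known, as was the rule for other named genes: the first 3 genes of each list, up to 6 called genes per list by lowest p, and the 6 genes most like the pigment and the Schwann members. Some list genes had no named probe here or fell under the detection filter. Alternatives were no batch term, chip as a random block, either batch alone, no background correction, median scaling, the authors' values, other detection filters, the mean of a gene's probes, array weights and leaving out each tumour. Part of the mice's genotype is not reported here.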

Additional observations from a re-analysis of the deposited data

Results flagged for a closer look

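Among 58 named genes and 116 groups of 7 tumours, 7 groups had 1 tumour far from the others by Dixon's test, at a level that chance passes in about 1 of 20 groups. None of the 10 pigment and Schwann lineage genes was among them. Nab1 was high in Type 2 replicate 4 at 10.01, the other Type 2 tumours lying between 8.83 and 9.32, and that tumour also had the highest Ncmap of its type. Rgs5 was low in Type 2 replicate 7 at 7.71, against 8.82 to 9.51 in the others. Folr1 was high in Type 2 replicate 5 at 6.68, with 4.59 to 4.81 in the others. Ttr, a choroid plexus gene, was high in Type 1 replicate 1 at 14.42, against 4.60 to 7.90. Olig1 was low in Type 1 replicate 5 at 10.17, the others lying between 12.72 and 14.42, and Pecam1 was low in the same tumour at 5.68, with 6.81 to 7.54 in the others. Itih5, one of the genes most like the pigment members, was high in Type 1 replicate 3 at 6.94, against 4.87 to 5.05, and that tumour had the highest Gpnmb of its type. Folr1 in Type 2 and Itih5 in Type 1 were each detected on only 1 array, and Ttr in Type 1 on 3. Their gaps are thus measured wholly or partly from signals at background.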

How the results depend on the processing

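The differences of the 10 genes were recomputed in 239 alternative settings, and none changed sign. In 237 they moved by less than 1 SD, the exceptions being Dct at 2.45 and Pmel at 2.39 without background correction. With that setting Cdh19 was 1.13 and Ncmap 0.82, and Ncmap ranged from 1.16 to 2.02 when each tumour was left out. Pmp2 was not measured when detection on at least 7 arrays was required. The number of genes called between types over the whole array was 547 (273 higher and 274 lower in Type 2), 166 in batch 1 alone (41 higher, 125 lower) and 123 in batch 2 alone (86 higher, 37 lower), where fewer tumours were fitted, and 401 to 774 in the other settings. Leaving out each tumour gave 195 to 639 genes, and the count moved by over 1.5 times without Type 2 replicate 3 (278), 4 (330), 5 (326), 6 (344) or 7 (347) or Type 1 replicate 1 (308), 2 (195) or 5 (267). Genes of the 10 that differed between batches numbered 0 in every setting except median scaling, where 1 (Egr2) did. The cause was not tested. In the authors' values 0 of all genes differed between batches, against 1258 in the main fit, so the 0 among the 10 there tells nothing about them. Interactions with batch and correlated pairs stayed at 0 in all settings run, with smallest adjusted p-values of 0.108 (without Type 2 replicate 1) and 0.126 (without Type 2 replicate 4). With chip as a random block (consensus correlation 0.0149) 465 genes were called. Schwann cell and neural crest genes higher in Type 2 numbered 4, but 0 in either batch alone and 2 without the detection filter. Shared myelin genes numbered 6, but 2 in batch 1 and 0 in batch 2 alone, and fibroblast genes 4, but 2 with chip as a block, without background correction or without the detection filter and 0 in either batch alone. Endothelial genes numbered 3 and 1 in either batch alone, the peripheral myelin gene Nab1 lost its call in 6 settings, and 1 central myelin gene passed in batch 2 alone. No paired analysis was possible because the replicate numbers follow accession order and pair no tumours.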
